A study of Mus musculus with 3 samples.

Results

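The 9 genes described here encode proteins of the cornified envelope and of squamous epithelium, namely Cnfn, Sprr1a, Sprr2a1, Sprr2a3, Ivl, Krt4, Tgm1, Evpl and Ppl. They were taken by symbol from a table of 56691 genes, and the choice was made with their values in these libraries known. RNA was sequenced from organoids grown out of the corpus of the mouse stomach, in 3 libraries, 1 per group. The first group, Gpx4 KO-Mist1+, carries a Gpx4 KO label and is read here as the one from Gpx4F/F;Mist1Cre/ERT2;RFPLSL mice. The Mist1+ and Mist1- groups carry a WT label and are read here as those from Mist1Cre/ERT2;RFPLSL mice, the other line the series names. All mice were about 8 weeks old and all groups share the Cre recombinase at the Mist1 locus, which marks cells with Mist1 activity, and the RFP reporter. The cultures were kept in a medium for proliferation. Each group is 1 library, so no difference has a replicate check, no test across groups was possible, and every comparison describes these libraries.

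The cornified envelope is a layer of cross-linked protein that replaces the plasma membrane of dying keratinocytes at the surface of skin and other squamous epithelia. Involucrin and the plakins form its scaffold below the membrane, small proline-rich proteins fill and bridge it, and transglutaminases join them through bonds between glutamine and lysine. In the mouse stomach a squamous epithelium lines the forestomach, whereas the corpus is glandular. Some small proline-rich genes are also known from simple epithelia under injury or stress.

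The libraries held between 14943918 and 16396693 counts. Gpx4 had 2569 counts in the library labelled Gpx4 KO-Mist1+, 1998 in Mist1+ and 4399 in Mist1-, so it was not lower in the labelled knockout than in Mist1+, and directions are given for that library as labelled. A count over the whole gene does not check a deleted part. All 8 markers of glandular gastric epithelium reached an FPKM of 1 in some library, with summed values of 2867, 2985 and 3895 FPKM in the labelled knockout, Mist1+ and Mist1-. None of 8 markers of forestomach and oesophageal squamous epithelium did, with sums of 0.86, 1.42 and 0.87 FPKM. Trp63, the master regulator of stratified epithelium, had 0 counts in all 3 libraries, and the basal keratin genes Krt5 and Krt14 had at most 1 and 2 counts. The 9 genes were thus measured in glandular epithelium in which the defining markers of basal squamous cells were at or near 0, and the name squamous describes what the genes are known for, not the cells.

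FPKM are counts scaled by exonic length and by library total, so levels of different genes can be set roughly side by side on that scale. The levels of Sprr2a1 and Sprr2a3 are less sure, because they share sequence with other copies, as described below. In the labelled knockout the order by FPKM was Sprr2a3, Sprr1a, Sprr2a1, Cnfn, Ppl, Krt4, Evpl, Ivl and Tgm1, at 108, 83.8, 32.4, 20.5, 13.3, 9.49, 2.29, 2.28 and 0.77 FPKM. Evpl and Ivl were not apart beyond their counting intervals. Of the 9 genes 6 were highest in the labelled knockout, and 7 were lowest in Mist1+. Both held for 5 genes, Cnfn, Sprr1a, Sprr2a3, Krt4 and Tgm1, and for Cnfn, Krt4 and Tgm1 the interval of the ratio of Mist1+ to Mist1- included 1. For Tgm1 the intervals of the ratios of the labelled knockout to both others included 1 too. Sprr2a3 was at 1.09-fold (1.05 to 1.14) in the labelled knockout over Mist1-, and that sign turned with median ratio scaling. The genes were chosen with these values known, and the share of all genes with each order is not given here. Sprr2a1 and Ivl were highest in Mist1-, and the plakin genes Evpl and Ppl were the pair that was not lowest in Mist1+.

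**Figure D1:**
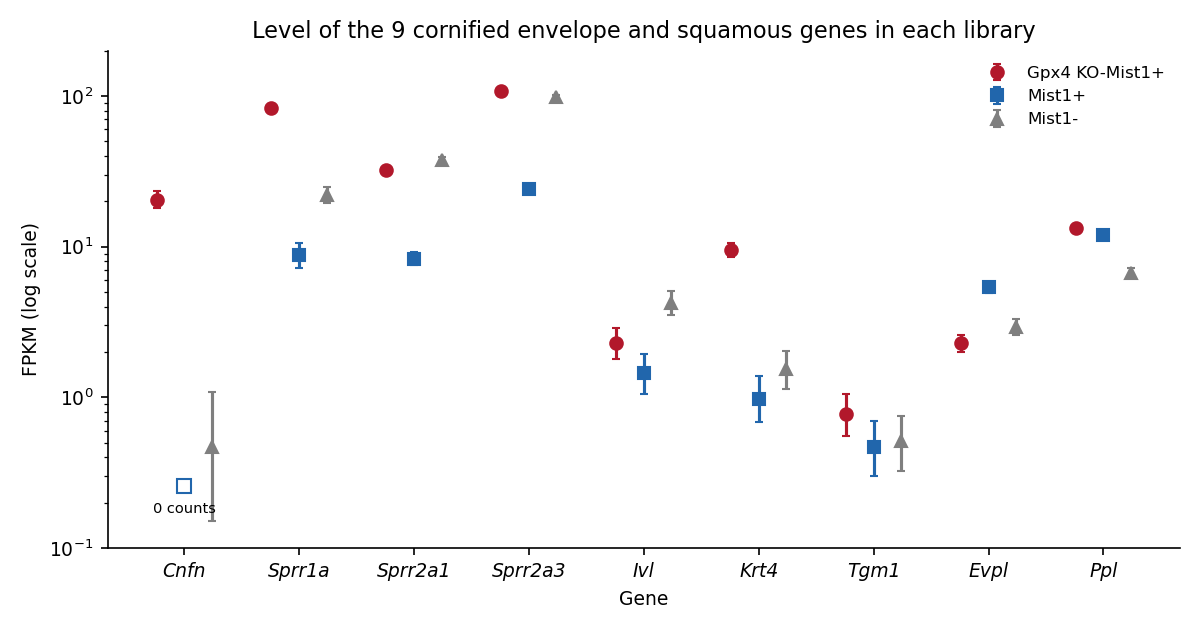
FPKM on a log axis of the 9 genes in the labelled knockout (circles), Mist1+ (squares) and Mist1- (triangles), with exact Poisson 95% intervals for counting error only. The open square is Cnfn in Mist1+, which had 0 counts and is drawn at the FPKM of 3 counts, 0.258; Cnfn was at 20.5 FPKM in the labelled knockout.

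Cnfn encodes cornifelin, a small cysteine-rich envelope protein. The gene (ENSMUSG00000063651) stands at chromosome 7, 25367620 to 25369724, minus strand, in GRCm38. It had 242 counts in the labelled knockout, 0 in Mist1+ and 5 in Mist1-, or 20.5, 0 and 0.47 FPKM. It was close to absent from both wild-type libraries; the 0 counts in Mist1+ allow an FPKM of up to 0.258 by a floor of 3 counts, and the upper end of the two-sided exact Poisson interval was 0.317 FPKM. Against that floor the labelled knockout had an at least 79.6-fold higher level than Mist1+; that bound leaves out the counting error of the 242 counts, and the lower end of the exact interval of the ratio was 64.3. The level was 44.1-fold higher (18.6 to 137) than Mist1-. Folds here are ratios of counts scaled to the library totals, with exact 95% intervals that cover counting error only. In bulk RNA, fewer cells of a type and less RNA per cell cannot be told apart.

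Sprr1a encodes a small proline-rich cross-bridging protein, also called cornifin. The gene (ENSMUSG00000050359; chromosome 3, 92483952 to 92485895, minus strand) had 1108 counts in the labelled knockout, 114 in Mist1+ and 266 in Mist1-, or 83.8, 8.74 and 22.1 FPKM. The 3 libraries were well apart, with the labelled knockout highest and Mist1+ lowest. In the labelled knockout Sprr1a was 9.60-fold higher (7.91 to 11.7) than in Mist1+ and 3.80-fold higher (3.32 to 4.36) than in Mist1-. Mist1+ was in turn 2.53-fold lower (2.02 to 3.18) than Mist1-.

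Krt4 encodes a type II keratin of the suprabasal layers of oesophagus, forestomach and other internal squamous linings. The gene (ENSMUSG00000059668; chromosome 15, 101918535 to 101924735, minus strand) had 332 counts in the labelled knockout, 34 in Mist1+ and 49 in Mist1-, or 9.49, 0.98 and 1.54 FPKM. It was high in 1 library only, at 9.64-fold (6.76 to 14.2) over Mist1+ and 6.18-fold (4.56 to 8.52) over Mist1-. The interval of the ratio of Mist1+ to Mist1-, 0.641 (0.401 to 1.01), included 1. Krt13, the usual type I partner of Krt4, had 2 counts in the labelled knockout, 0 in Mist1+ and 1 in Mist1-.

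Sprr2a1 and Sprr2a3 encode small proline-rich proteins of a second class and followed another order, low in Mist1+ and high in both other libraries. Sprr2a3 (ENSMUSG00000074445; chromosome 3, 92285417 to 92291405, plus strand) had 5086 counts in the labelled knockout, 1132 in Mist1+ and 4237 in Mist1-, or 108, 24.3 and 98.3 FPKM. Sprr2a1 (ENSMUSG00000078664; chromosome 3, 92215799 to 92221911, plus strand) had 1594, 404 and 1676 counts in the same libraries, or 32.4, 8.31 and 37.4 FPKM. Sprr2a3 was 4.44-fold (4.16 to 4.73) and Sprr2a1 3.90-fold (3.49 to 4.36) higher in the labelled knockout than in Mist1+. Against Mist1- the labelled knockout was at 1.09-fold (1.05 to 1.14) for Sprr2a3 and 0.867-fold (0.809 to 0.929) for Sprr2a1, small differences on opposite sides of 1. Their signs turned under another scaling, to a log2 ratio of -0.01 for Sprr2a3 with median ratio scaling and 0.08 for Sprr2a1 on TPM.

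The counts of the Sprr2a genes are uncertain one by one, because the copies share sequence, Sprr2a1 and Sprr2a2 more than Sprr2a3. Of the windows of 100 bases in the Sprr2a1 transcript, 92.5% also occur in another Sprr gene, and the share was 92.8% for Sprr2a2, the third copy, and 36.2% for Sprr2a3, against 0% for Sprr1a and for Ivl. Sprr2a1 also overlaps Sprr2a2 in exons in the GENCODE M21 annotation. How reads that match more than 1 copy were counted is not given in the sources used here. The sum of the 3 copies does not depend on how reads were split among them, though it would miss reads that were left out for matching several copies. It was 7396 counts in the labelled knockout, 1907 in Mist1+ and 6712 in Mist1-. On the sum the labelled knockout was 3.83-fold higher (3.64 to 4.03) than Mist1+ and at 1.004-fold (0.972 to 1.04) relative to Mist1-, and Mist1+ was 3.81-fold lower (3.62 to 4.01) than Mist1-. Sprr2a3 took 68.8% of the sum in the labelled knockout (67.7 to 69.8, exact binomial), 59.4% (57.1 to 61.6) in Mist1+ and 63.1% (62.0 to 64.3) in Mist1-. These shares depend on how reads were assigned, which the intervals do not cover, and Sprr2a3 had the fewest shared windows of the 3 copies. Sprr2a2 had 716, 371 and 799 counts in the same libraries, or 9.68%, 19.5% and 11.9% of the sum. On its own it was 1.91-fold higher (1.68 to 2.17) in the labelled knockout than in Mist1+, less than the sum.

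The 250 bases before the RefSeq starts of Sprr2a1 (chr3:92215585-92215834, plus strand) and Sprr2a3 (chr3:92285054-92285303, plus strand) on GRCm38.p6 are shown because they display how alike the copies are upstream of their starts. Capitals mark the longest run shared by both, 222 bases.
Sprr2a1: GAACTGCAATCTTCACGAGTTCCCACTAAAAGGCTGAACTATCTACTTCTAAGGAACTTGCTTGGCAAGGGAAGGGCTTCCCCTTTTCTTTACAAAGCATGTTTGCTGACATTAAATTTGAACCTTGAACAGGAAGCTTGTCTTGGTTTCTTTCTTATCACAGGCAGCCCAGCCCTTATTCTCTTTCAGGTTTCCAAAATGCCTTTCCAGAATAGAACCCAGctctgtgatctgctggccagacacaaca
Sprr2a3: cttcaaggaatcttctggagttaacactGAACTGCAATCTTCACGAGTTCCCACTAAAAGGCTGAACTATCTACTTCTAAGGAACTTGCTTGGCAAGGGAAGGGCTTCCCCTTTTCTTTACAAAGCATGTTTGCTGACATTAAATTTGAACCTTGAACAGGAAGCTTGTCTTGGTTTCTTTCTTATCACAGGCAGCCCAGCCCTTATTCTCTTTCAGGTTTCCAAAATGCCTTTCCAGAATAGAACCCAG

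Ivl encodes involucrin, a glutamine-rich scaffold protein and classical marker of keratinocyte differentiation. The gene (ENSMUSG00000049128; chromosome 3, 92570902 to 92573735, minus strand) had 72 counts in the labelled knockout, 45 in Mist1+ and 122 in Mist1-, or 2.28, 1.45 and 4.25 FPKM. Ivl stayed low throughout and, unlike Sprr1a, Cnfn and Krt4, was highest in Mist1-. It was 1.58-fold higher (1.07 to 2.35) in the labelled knockout than in Mist1+, 1.86-fold lower (1.38 to 2.52) than in Mist1-, and 2.94-fold lower (2.07 to 4.23) in Mist1+ than in Mist1-. Tgm1, the membrane-bound transglutaminase that joins the envelope in keratinocytes (ENSMUSG00000022218; chromosome 14, 55700009 to 55713926, minus strand), had 40, 24 and 24 counts in the labelled knockout, Mist1+ and Mist1-. At 0.77, 0.47 and 0.51 FPKM it was the one member of the 9 below 1 FPKM in every library, and the intervals of all 3 ratios included 1. A difference in Tgm1 was not detectable at this depth. Its gene overlaps Gm49067 in exons in the GENCODE M21 annotation, so its few reads may include some of that gene.

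The plakin genes went their own way. Envoplakin and periplakin pair up and tie keratin filaments to the envelope scaffold and to desmosomes. Evpl (ENSMUSG00000034282; chromosome 11, 116220559 to 116238077, minus strand) had 240 counts in the labelled knockout, 556 in Mist1+ and 279 in Mist1-, or 2.29, 5.38 and 2.92 FPKM. It was highest in Mist1+, where the Sprr genes were lowest. In the labelled knockout Evpl was 2.35-fold lower (2.01 to 2.74) than in Mist1+ on counts, a log2 ratio of -0.96 once 1 was added to each FPKM, which falls just short of 2-fold. Ppl (ENSMUSG00000039457; chromosome 16, 5086291 to 5132421, minus strand) had 1503, 1335 and 686 counts in the labelled knockout, Mist1+ and Mist1-, or 13.3, 11.96 and 6.66 FPKM. Ppl was 1.11-fold higher (1.03 to 1.20) in the labelled knockout than in Mist1+, and 1.997-fold higher (1.82 to 2.19) than in Mist1-. The partners thus had different orders of libraries, both with Mist1+ above Mist1-, by 1.84-fold (1.59 to 2.13) for Evpl and 1.80-fold (1.64 to 1.97) for Ppl.

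A gene was called when FPKM plus 1 differed by a factor of 2 or more. Low genes, under 1 FPKM in every library, were left out. Of the 9 members 8 passed that filter, all but Tgm1. For the labelled knockout over Mist1+ 5 members were called higher (Cnfn, Sprr1a, Sprr2a1, Sprr2a3 and Krt4), with log2 ratios from 1.84 to 4.43, beside 4.81% of all 13351 genes. None were called lower, beside 2.74% of all genes. In the labelled knockout over Mist1- 3 were higher (Cnfn, Sprr1a and Krt4; 11.6% of all genes) and none lower (8.56%). In Mist1+ over Mist1- none were higher (7.88%) and 4 were lower (Sprr1a, Sprr2a1, Sprr2a3 and Ivl; 5.73%). The members were chosen on these contrasts, so the counts are a description and carry no test. Cnfn also passed the filter only through the labelled knockout. The comparisons also share libraries, since Mist1+ stands in the first and the last and the labelled knockout in the first and the second.

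**Figure D2:**
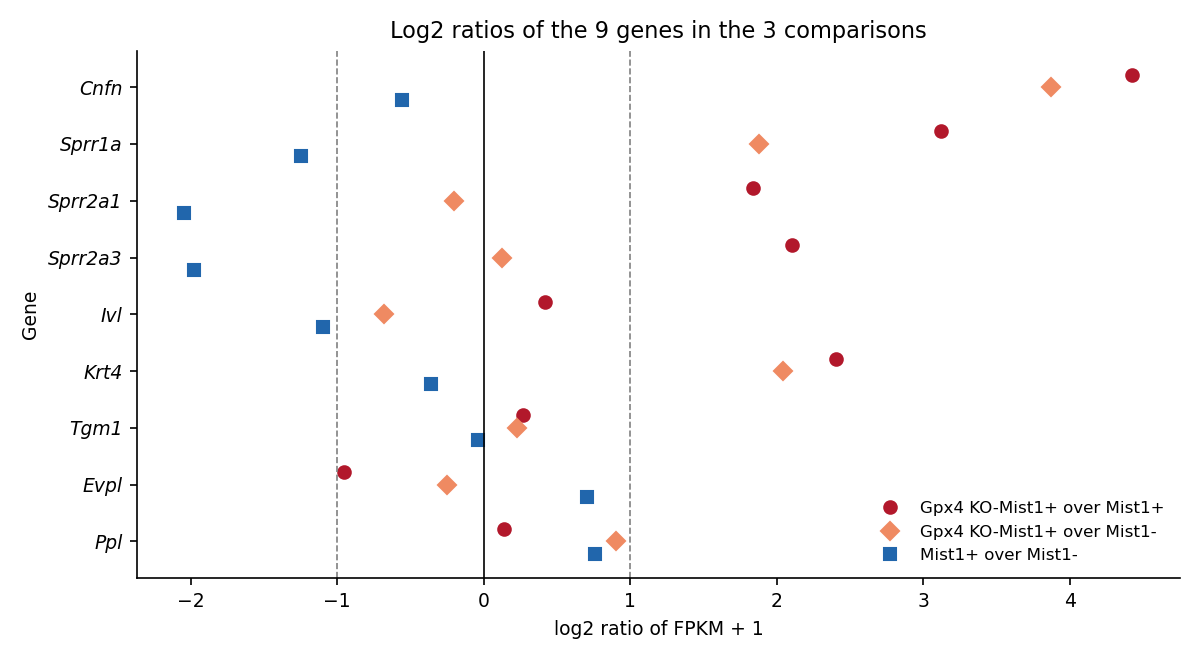
Log2 ratios of FPKM plus 1 for the 9 genes, for the labelled knockout over Mist1+ (circles), the labelled knockout over Mist1- (diamonds) and Mist1+ over Mist1- (squares); dashed lines stand at 2-fold. Cnfn, Sprr1a and Krt4 lie past 2-fold in the labelled knockout against both wild-type libraries, and Sprr2a1 and Sprr2a3 only against Mist1+.

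Differences from Mist1- went with gene length over the whole table, which touches the members because they range from 719 to 6893 exonic bases. Over the 13351 genes, log2 ratios had a Spearman rho with exonic length of -0.02 for the labelled knockout over Mist1+, 0.39 for the labelled knockout over Mist1- and 0.49 for Mist1+ over Mist1-; genes are not independent replicates. With that trend removed, which also sets the typical gene of each length at 0, the log2 ratio of Mist1+ over Mist1- was -1.98 for Sprr2a1 and -1.89 for Sprr2a3. It became -0.81 for Sprr1a, against -1.24 before, and -0.76 for Ivl, against -1.10, so 2 of the 4 calls ended. The call of Sprr1a ended on TPM too, where Cnfn was called in its place. The plakin genes are the longest of the 9, and their log2 ratios shrank to 0.29 for Evpl, against 0.70, and 0.31 for Ppl, against 0.76. In the labelled knockout over Mist1+ the same step left the 5 calls in place, with log2 ratios of 4.46 for Cnfn, 3.16 for Sprr1a, 2.51 for Krt4, 2.22 for Sprr2a3 and 1.96 for Sprr2a1. In the labelled knockout over Mist1- it left the 3 calls in place, at 4.26 for Cnfn, 2.28 for Sprr1a and 2.39 for Krt4. There Ppl fell to 0.53, against 0.90 before, and Evpl to -0.57, against -0.25.

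**Figure D3:**
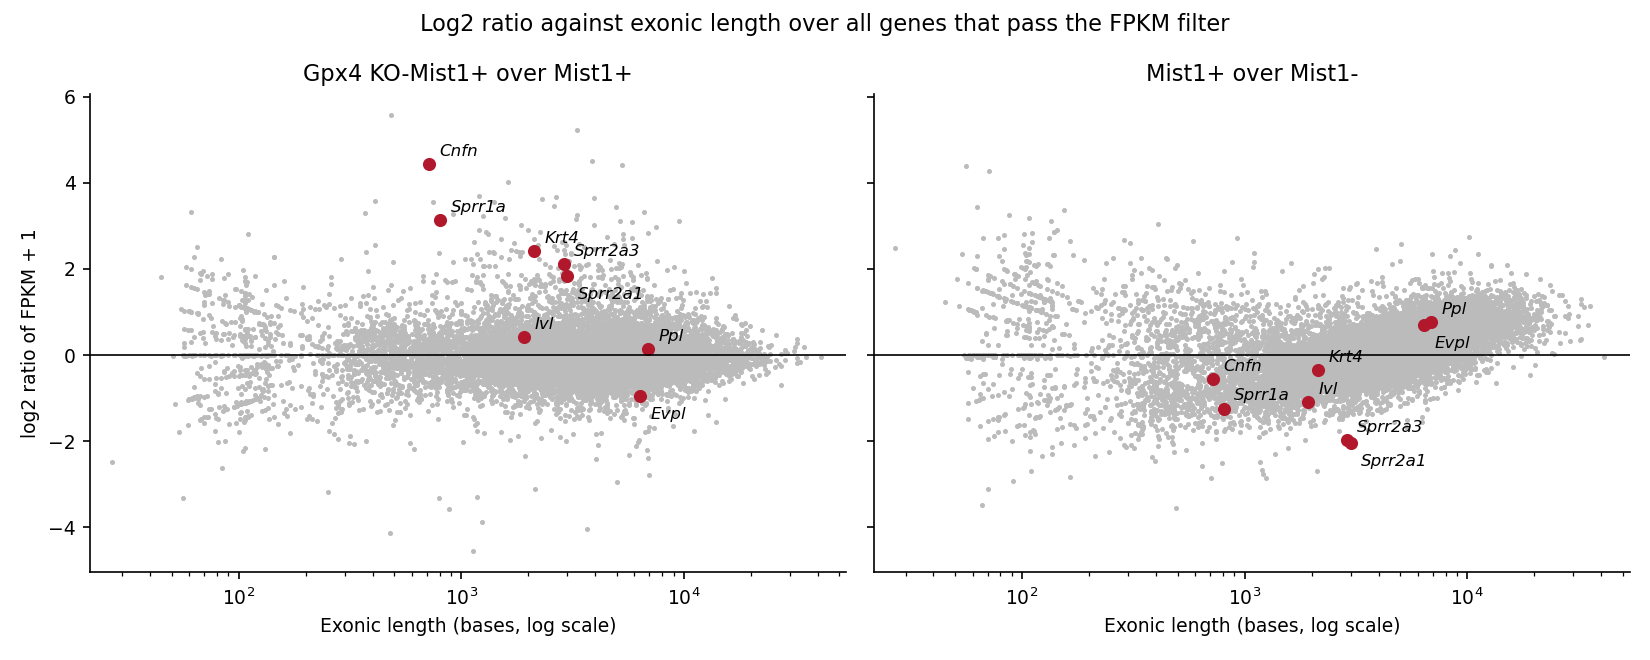
Log2 ratio of FPKM plus 1 against exonic length on a log axis for 13351 genes (grey) and the 8 members that pass the filter (red), for the labelled knockout over Mist1+ (left) and Mist1+ over Mist1- (right). The cloud is flat on the left (rho -0.02) and rises with length on the right (rho 0.49), where Sprr2a1 and Sprr2a3 lie 1.98 and 1.89 log2 units below the trend at their length.

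Scaling also bears on comparisons with Mist1-. Over all genes the median log2 ratio of Mist1+ over Mist1- was 0.15, and it was 0.45 on TPM and -0.03 with median ratio scaling. For the labelled knockout over Mist1- it was 0.09, 0.38 and -0.02 in the same order, and for the labelled knockout over Mist1+ it was -0.09, -0.11 and -0.01. Among the genes called for Mist1+ over Mist1-, 57.9% were higher, but 84.9% on TPM, 70.1% on CPM, 34.4% with median ratio scaling and 24.6% with a pseudocount of 5. For the labelled knockout over Mist1- the share was 57.6%, but 80.3% on TPM, 45.7% with median ratio scaling and 38.2% with a pseudocount of 5. For the labelled knockout over Mist1+ it was 63.7%, but 76.4% with a pseudocount of 5. The median log2 ratio of the 8 members that pass, set beside that of all genes, was 1.97 beside -0.09 for the labelled knockout over Mist1+, 0.51 beside 0.09 for the labelled knockout over Mist1-, and -0.83 beside 0.15 for Mist1+ over Mist1-.

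Of the 9 members 4 (Sprr1a, Sprr2a1, Sprr2a3 and Ivl) lie in the epidermal differentiation complex on chromosome 3, a cluster of genes for envelope proteins. Most of the cluster had no counts here. Of 50 genes for small proline-rich, late cornified envelope and related proteins along it, 38 had 0 counts in all 3 libraries and 9 reached 10 counts in some library. No late cornified envelope gene did: 20 of 21 Lce genes were at 0, and Lce1m had 1 count in the labelled knockout. Among 17 Sprr genes 4 reached 10 counts, which were Sprr1a and the 3 Sprr2a copies. Flg and Flg2, for the filaggrins of the horny layer, were at 0, and Lor, for loricrin, had 15 counts in the labelled knockout, 26 in Mist1+ and 14 in Mist1-. Crct1, another gene of the cluster, had 59 counts in the labelled knockout and 1 in each wild-type library, a ratio of 58.2 (10.1 to 2339) over Mist1+.

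**Figure D4:**
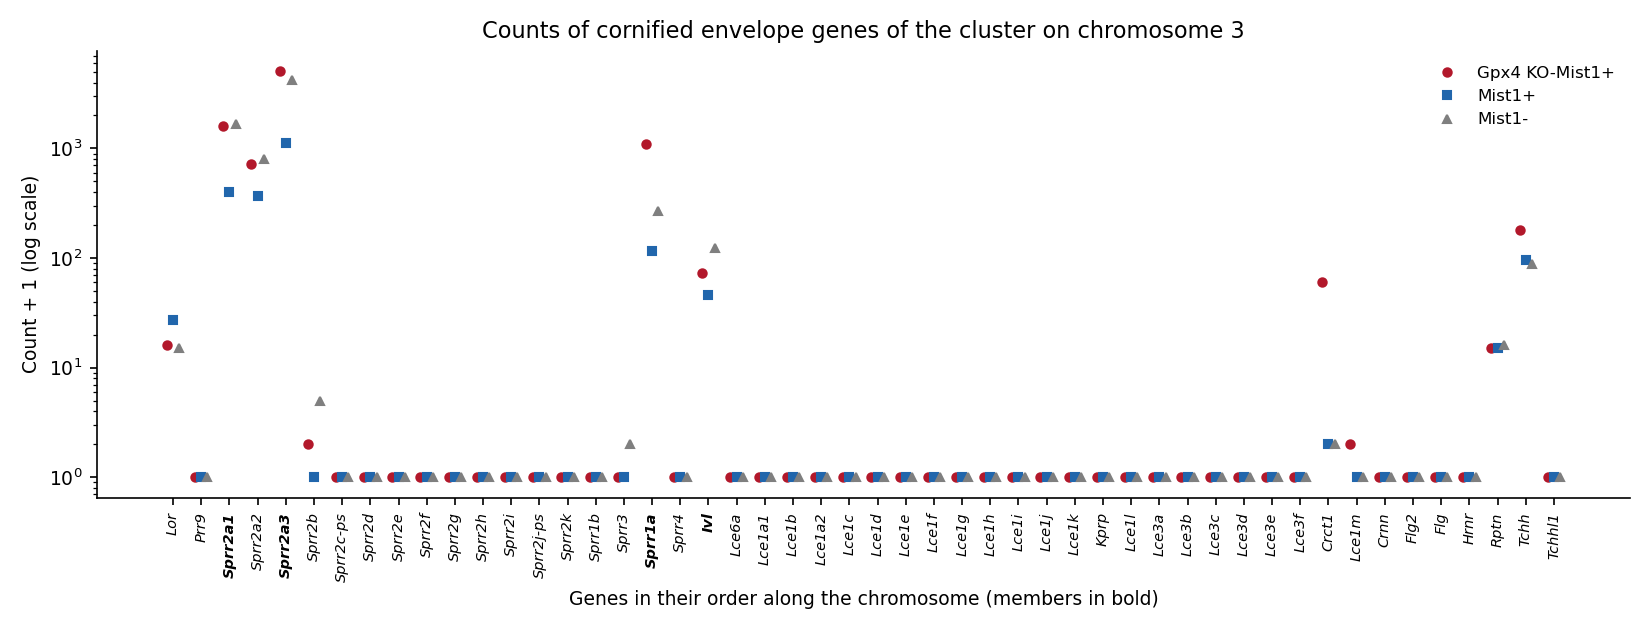
Counts plus 1 on a log axis for 50 cornified envelope genes of the cluster on chromosome 3 in their order along it, in the labelled knockout (circles), Mist1+ (squares) and Mist1- (triangles). Signal is limited to a few genes, and 38 of the 50 sit at 0 counts in all 3 libraries.

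The same cross-linking system was followed in 7 lists of related genes. Of 53 envelope precursor genes that were listed, 10 passed the filter. For the labelled knockout over Mist1+ 6 of the 10 were called higher and none lower, beside 4.81% and 2.74% of all genes, with a median log2 ratio of 1.94 beside -0.09 for all genes. The members were chosen on this contrast and make up most of that count. Without the members, 2 of 5 were higher, Scel and Crct1, with a median of 0.85. Crct1, with 59 counts in the labelled knockout and 1 in each wild-type library, passed the filter only through the labelled knockout. The list was also chosen with earlier results of these data known, so this count is a description. Against Mist1- the labelled knockout had 4 of the 10 higher and 1 lower, beside 11.6% and 8.56% of all genes, with a median of 0.33. Without the members, 2 of 5 were higher there and 1 lower, with a median of 0.54. In Mist1+ over Mist1- none were higher and 6 lower, beside 7.88% and 5.73%, with a median of -1.07, and 3 stayed lower with the length trend removed (Sprr2a1, Sprr2a2 and Sprr2a3). Most of the 6 were members chosen on these contrasts. Without the members, 2 of 5 were lower, Sprr2a2 and Cstb, and the median was 0. Scel encodes sciellin, another envelope precursor, and stands outside the cluster; it had 446 counts in the labelled knockout, 77 in Mist1+ and 57 in Mist1-, or 5.72-fold (4.48 to 7.38) and 7.13-fold (5.40 to 9.57) over the wild-type libraries. Cstb, for the protease inhibitor cystatin B, was at 108, 112 and 232 FPKM in the labelled knockout, Mist1+ and Mist1-. It was called lower in both Mist1+ libraries against Mist1-, with log2 ratios of -1.10 for the labelled knockout and -1.05 for Mist1+; with the length trend removed these were -0.74 and -0.65.

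Of 44 suprabasal and squamous surface genes 20 passed, and 8 were called higher and none lower for the labelled knockout over Mist1+, beside 4.81% and 2.74% of all genes, with a median of 0.42. Ly6d, for a small surface protein of keratinocytes, had 275 counts in the labelled knockout, 12 in Mist1+ and 75 in Mist1-, which was 22.6-fold (12.7 to 44.3) over Mist1+. S100a14, for a calcium-binding protein, had 268, 20 and 63 counts in the same libraries, and Cysrt1, for a cysteine-rich tail protein, 114, 4 and 26. These genes shared the order of Sprr1a, highest in the labelled knockout and lowest in Mist1+. Anxa8, for a membrane-binding annexin, was at 37.1, 6.31 and 13.8 FPKM, and Serpinb5, for the serpin maspin, at 11.6, 2.85 and 9.78 FPKM. Prss27, for a serine protease, had 39 counts in the labelled knockout and 0 in both wild-type libraries, at least 12.8-fold and 11.8-fold higher against a floor of 3 counts, with lower ends of the exact intervals at 9.95 and 9.19. It passed the filter only through the labelled knockout. This list too was chosen with earlier results known, so its counts are a description. Emp1, for a small epithelial membrane protein, was 4.04-fold (3.59 to 4.57) and 3.73-fold (3.31 to 4.22) higher than in Mist1+ and in Mist1-. Against Mist1- the labelled knockout had 7 of the 20 higher and 1 lower, Sfn, for the scaffold protein stratifin, beside 11.6% and 8.56% of all genes, with a median of 0.16. With the length trend removed Sfn was at a log2 ratio of -0.66, against -1.08, and was not called. In Mist1+ over Mist1- 5 of the 20 were lower and 1 higher, beside 5.73% and 7.88% of all genes, with a median of -0.41 beside 0.15 for all genes; the lower ones included Ly6d, Serpinb5 and the cytokine gene Il1a, at log2 ratios of -1.95, -1.49 and -1.11. With the length trend removed Ly6d and Serpinb5 stayed lower, at -1.53 and -1.37, and the calls of Il1a, at -0.78, Anxa8, S100a14 and the higher gene Dsp ended.

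Of 21 plakin, desmosome and cytolinker genes 13 passed, and none were called in either direction in the labelled knockout over Mist1+, with a median of -0.20, beside 4.81% higher and 2.74% lower of all genes. Perp, for a membrane protein of desmosomes, had the order of Sprr1a, at 97.6, 56.8 and 90.2 FPKM in the labelled knockout, Mist1+ and Mist1-. Dsp, for desmoplakin, was at 30.8, 45.8 and 18.5 FPKM in the labelled knockout, Mist1+ and Mist1-, and Jup, for plakoglobin, at 27.7, 45.1 and 26.9 FPKM. In Mist1+ over Mist1- 4 were at least 2-fold higher (Dsp, Plec, Macf1 and Dsg2), beside 7.88% of all genes, and none lower, with a median of 0.73. These are long genes, and with the length trend removed their log2 ratios were 0.66, 0.18, 0.27 and 0.56. Among 8 transglutaminase genes Tgm2, for the widespread tissue transglutaminase, was the one that passed, at 38.01, 53.96 and 29.4 FPKM in the labelled knockout, Mist1+ and Mist1-. It was thus at a far higher FPKM than Tgm1, and was 0.704-fold (0.671 to 0.739) in the labelled knockout relative to Mist1+.

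Among the other keratin genes listed, 3 of simple epithelium had the highest FPKM. Of 21 stratified keratin genes that were listed, 4 passed. Krt4, itself a member, was the one called, higher in the labelled knockout over Mist1+ and over Mist1-, beside 4.81% and 11.6% of all genes. Without Krt4 none of the 3 others were called in any comparison. Krt80 was at 2.94, 1.14 and 1.44 FPKM in the labelled knockout, Mist1+ and Mist1-, and Krt23 at 86.1, 46.1 and 70.1 FPKM; both had the labelled knockout highest and Mist1+ lowest, without reaching 2-fold on the log2 scale used. The simple epithelium keratin genes Krt8, Krt18 and Krt19 stood between 413 and 1080 FPKM in all libraries. Krt7, also of simple and ductal epithelia, was 2.43-fold higher (2.35 to 2.51) in the labelled knockout than in Mist1+, at 112, 46.1 and 93.2 FPKM. Of 27 genes for transcription factors of squamous differentiation 18 passed and 1 was called in the labelled knockout over Mist1+, a share near the 4.81% of all genes, with a median of -0.08. The gene called was Hopx, for a small homeodomain protein, at 17.2, 1.83 and 3.40 FPKM, or 9.39-fold (6.90 to 13.1) over Mist1+. Klf4, a driver of barrier formation in skin, was at 35.2, 31.1 and 30.6 FPKM, and Grhl3, another, at 6.01, 4.76 and 3.14 FPKM.

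**Figure D5:**
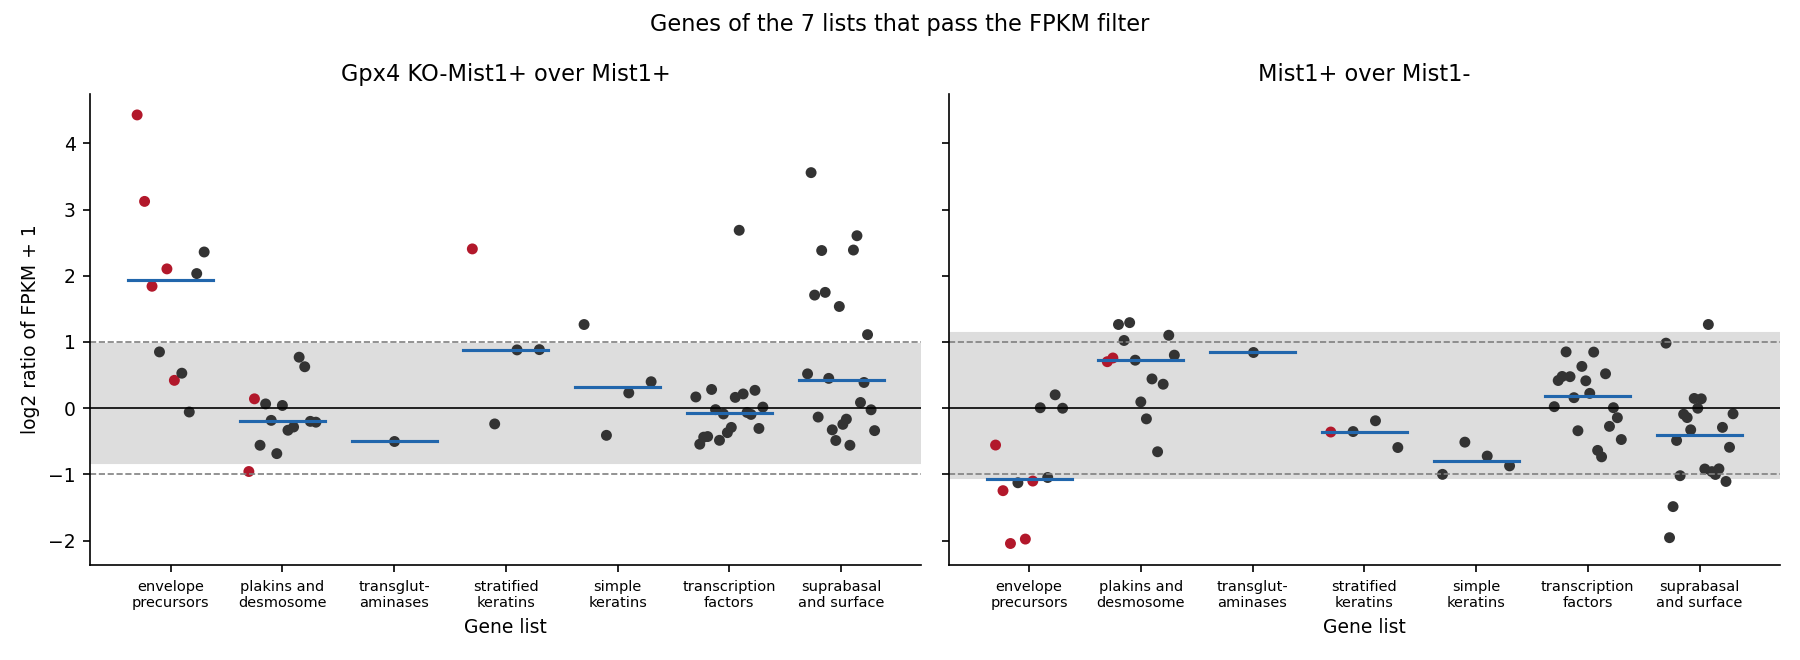
Log2 ratios of FPKM plus 1 for the genes of 7 lists that pass the filter, for the labelled knockout over Mist1+ (left) and Mist1+ over Mist1- (right). Red points are members, black points other genes, blue bars list medians, dashed lines 2-fold, and the grey band holds the middle 90% of all 13351 genes. On the left some envelope precursors, most of them members chosen on this contrast, and some suprabasal genes lie above the band. None of the 13 plakin and desmosome genes does, and by the definition of the band few of all genes do. The plakin gene Evpl, a member, lies below the band on the left, at -0.96 beside a lower edge of -0.825.

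Markers of other cell types moved with some of these levels. The 4 surface pit cell markers summed to 90.4 FPKM in the labelled knockout, 98.0 in Mist1+ and 713 in Mist1-. The sum thus separated Mist1- from both others, whereas Cnfn, Krt4 and Sprr1a separated the labelled knockout. Tff1 made up most of it, at 87.7, 90.6 and 657 FPKM, and Gkn1 and Gkn2 were also highest in Mist1-. Muc5ac did not separate the libraries, at 0.18, 0.14 and 0.22 FPKM, and the intervals of all its ratios included 1. Of the 3 intestinal markers Vil1, for the microvillus protein villin, followed the order of Sprr1a at 84.95, 14.2 and 32.8 FPKM, while Muc2 stood at 0.20, 0.11 and 0.04 FPKM and Cdx2 had 7, 0 and 0 counts. Cd68, a macrophage and lysosome gene, was at 24.4, 5.06 and 4.37 FPKM, but the leukocyte gene Ptprc had 0, 1 and 1 counts and the T cell gene Cd3e 0 in all. The 5 mesenchymal markers summed to at most 0.62 FPKM and the 2 endothelial ones to at most 0.14 FPKM. Chief cell markers, of which Pga5 had 0 counts, summed to 2593, 3413 and 1947 FPKM, highest in Mist1+ where the Sprr genes were lowest, and parietal cell markers, with Atp4b at 0, to 1.35, 1.69 and 1.03 FPKM. The part of these other genes in the levels of the members was not tested.

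For each member that passed, the genes with the closest profile over the 3 libraries were sought by Euclidean distance of centred log2 FPKM plus 1, among genes that reached 5 FPKM and had a range of at least 1 log2 unit. With 3 libraries such likeness is a weak description. Among the closest were Ero1a for Cnfn (distance 0.14), Aldoc and Ndrg1 for Sprr1a (0.07 and 0.17), and Atg9b and Stbd1 for Krt4 (0.09 and 0.10). For Sprr2a1 they included Ankrd37 and S100a10 (0.16 and 0.17), and for Sprr2a3 they included Sprr2a1 and Fam162a (0.25 and 0.27). Ivl lay near the ribosomal protein gene Rps3a1 (0.01), Evpl near Hells and Fam102a (0.05 and 0.06), and Ppl near App and Zfp106 (both 0.08).

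Windows of 250 bases before the RefSeq start were at hand for 6 of the 9 members. AP-1, the dimer of Fos and Jun proteins, is known to drive involucrin and small proline-rich genes in keratinocytes, and KLF factors bind GT-rich boxes. The letters TGANTCA for AP-1, GGGTGTG for KLF and ACGTG for the hypoxia response element were searched on both strands. Sprr1a held 2 AP-1 matches, which begin 146 and 116 bases before the start, and Ivl held 1, at 116 bases. Over 32817 windows of the same length 6.75% held at least 1 AP-1 match and 0.338% held 2 or more. A KLF match was found in Ivl, at 148 bases, and in Cnfn, at 155 bases, and in 6.93% of all windows. The hypoxia letters were found in 1 of the windows of Tgm1, and in 16.6% of all. The Sprr2a windows held none of the 3. A match describes letters and not a bound site.

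The windows with AP-1 or KLF letters are shown because they hold the letters searched for, and they belong to Sprr1a (chr3:92485882-92486131, minus strand), Ivl (chr3:92573736-92573985, minus strand) and Cnfn (chr7:25369725-25369974, minus strand) on GRCm38.p6. They are written 5′ to 3′ on the strand of the gene, and capitals mark the AP-1 and KLF matches.
Sprr1a: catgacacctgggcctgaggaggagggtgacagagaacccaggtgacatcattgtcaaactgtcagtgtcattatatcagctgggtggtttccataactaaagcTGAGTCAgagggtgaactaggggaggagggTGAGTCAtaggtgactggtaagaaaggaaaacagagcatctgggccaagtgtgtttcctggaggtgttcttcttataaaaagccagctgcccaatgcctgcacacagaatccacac
Ivl: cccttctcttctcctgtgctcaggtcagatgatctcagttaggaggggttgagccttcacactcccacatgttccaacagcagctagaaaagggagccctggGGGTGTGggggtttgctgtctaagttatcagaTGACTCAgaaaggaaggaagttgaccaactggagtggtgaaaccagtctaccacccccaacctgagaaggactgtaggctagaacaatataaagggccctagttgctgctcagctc
Cnfn: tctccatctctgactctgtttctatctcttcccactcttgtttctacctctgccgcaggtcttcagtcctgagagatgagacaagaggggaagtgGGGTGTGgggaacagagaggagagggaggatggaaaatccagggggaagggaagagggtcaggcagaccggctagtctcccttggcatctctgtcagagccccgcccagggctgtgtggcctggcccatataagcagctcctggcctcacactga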

How the data were processed

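Per the submitters' processing notes, cutadapt 1.9.1, HISAT2 2.2.1, HTSeq 0.6.1 and GRCm38.p5 were used. Per the file headers, each library has a column of counts and a column of FPKM in the table the authors deposited. Deposited FPKM lay within 2.77% of count over exonic length and column total for genes with at least 50 counts. Positions in the deposited table matched GENCODE M21 at both ends for 2.83% of 52073 shared identifiers, so coordinates printed here come from M21 on GRCm38 and, for upstream windows, from RefSeq on GRCm38.p6. The starts of the 4 members on chromosome 3 all differed from M21 by the same -92693 bases. Overlaps between genes were read from M21, and the annotation used for the counts was not checked. The filter kept 13351 genes that reached 1 FPKM in some library, and log2 ratios took a pseudocount of 1, which understates changes of low genes. Counts have exact Poisson and folds exact binomial-split intervals at 95%, for counting error only, since reads are not independent molecules. The length trend was removed by subtracting a lowess fit (fraction 0.3), level included. With 1 library per group there was no test.

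The members, the 7 lists and the markers were chosen with earlier results of these data known. Named from each list were up to 4 called genes per comparison by the largest ratio, and others were named after their values were seen. Some of the genes with close profiles are not reported here. The alternatives were pseudocounts, filters, scalings, cutoffs and the length trend. Calls were tested on simulated data, where lowered genes of low FPKM could be missed because the pseudocount shrinks their ratios. Software was matplotlib 3.10.9, statsmodels 0.14.6, scipy 1.17.1, pandas 2.3.3, numpy 2.4.6 and Python 3.11.15.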

Additional observations from a re-analysis of the deposited data

How the results depend on the processing

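The 5 members called higher for the labelled knockout over Mist1+ were the same 5 under every alternative at a 2-fold or 1.5-fold cutoff, and 4 of them passed 4-fold. Evpl was 1 gene called lower there with a pseudocount of 0.1, on TPM, on CPM and at a 1.5-fold cutoff, against 0 otherwise. For the labelled knockout over Mist1-, 1 member (Ivl) was lower at a 1.5-fold cutoff, against 0, and the 3 higher ones became 4 (with Ppl) on TPM and at a 1.5-fold cutoff, and 2 (without Sprr1a) at a 4-fold cutoff. For Mist1+ over Mist1-, 2 members (Evpl and Ppl) were higher on TPM and at a 1.5-fold cutoff, against 0, and the 4 lower ones became 2 (Sprr2a1 and Sprr2a3) with a pseudocount of 5 and with the length trend removed, and 1 (Sprr2a1) at a 4-fold cutoff. The lower ones were 5 (with Cnfn) with a pseudocount of 0.1, Ivl could not be read at a filter of 5 FPKM, and on TPM the 4 lower ones were Cnfn, Sprr2a1, Sprr2a3 and Ivl. Of 189 log2 ratios of members under alternatives, 2 changed sign, as given above, and none of these was called. Counts over all genes ranged from 129 to 3795 higher and from 396 to 1227 lower for Mist1+ over Mist1- at 2-fold. No paired analysis was possible because each group has 1 library. Low counts limit what can be said of Tgm1, Crct1 and Cnfn in the wild-type libraries.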

Other observations

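Terms of the Gene Ontology stand in the deposited table, and 6 that touch this system were read after the values were seen. The cornified envelope term had 26 genes, of which 12 passed the filter. For the labelled knockout over Mist1+ 4 were called higher and none lower, beside 4.81% and 2.74% of all genes. These 4 were members, and without the members it was 0 of 6. Peptide cross-linking had 1 of 6 higher, Sprr1a, and 0 of 4 without the members. Keratin filament had 2 of 10 higher, Krt4 and Krt7, and 1 of 9 without the members. Neither term had a gene called lower there. Of 44 genes annotated to keratinization 17 passed the filter, and 5 were called higher and none lower for the labelled knockout over Mist1+. These were Il1a and 4 of the 9 genes described above, so without the 9 genes it was 1 of 10, beside 4.81% of all genes. Of 45 genes annotated to keratinocyte differentiation 25 passed, of which 2 were higher, Sprr1a and Scel, and 1 lower, the opsin gene Opn3, beside 4.81% and 2.74% of all genes; the call of Opn3 ended with the length trend removed, and Txnip and Ptgs1 were then called higher. Against Mist1- the labelled knockout had 7 of these 25 called higher and 2 lower, beside 11.6% and 8.56% of all genes. With the length trend removed it was 5 higher and 0 lower, as the calls of Plec, Lats1, Opn3 and Sfn ended. The higher ones included Epha2, for a receptor of ephrins, at 51.7 FPKM in the labelled knockout, 29.1 in Mist1+ and 21.8 in Mist1-. Of 30 genes annotated to the desmosome 17 passed. None were called in either direction in the labelled knockout over Mist1+, beside 4.81% higher and 2.74% lower of all genes.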
